A study of Caenorhabditis elegans with 12 samples.

Results

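The comparison described here is of double mutants lacking *gsr-1a* and *trxr-2* with *trxr-2* single mutants, that is, the change in mRNA levels when the mitochondrial isoform of glutathione reductase is lost in worms that already lack mitochondrial thioredoxin reductase. Libraries were taken by their titles: the 3 libraries whose titles give both *gsr-1 (syb266 mito)* and *trxr-2 (tm2047)* and the 3 libraries whose titles give *trxr-2 (tm2047)* alone, 6 of the 12 libraries of the series. The other 6 libraries came from the wild type, N2, and from the single mutant *gsr-1 (syb266 mito) III*, called *gsr-1a* here. PolyA RNA of whole young adult *Caenorhabditis elegans* worms was sequenced, with 3 replicates per strain that the study describes as independent experiments. Both strains compared carry *tm2047*, a null allele of *trxr-2*, and by their titles differ by *syb266*. This edited *gsr-1* allele lacks exon 1, so the enzyme is missing from mitochondria while GSR-1b, the cytosolic form worms need to live, is still made. Each strain is a single line of outcrossed worms, so other differences between the lines cannot be told apart from the effect of *syb266*. The RNA mixes all tissues, so in these bulk samples more cells of a type and more RNA per cell cannot be told apart.

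Mitochondria keep protein thiols reduced through a thioredoxin and a glutathione system. Thioredoxin reductase returns oxidised thioredoxin to its reduced form, and glutathione reductase does the same for glutathione, both with electrons from NADPH. When proteins misfold or import fails in worm mitochondria, the transcription factor ATFS-1 moves to the nucleus and raises mitochondrial chaperones, detoxification enzymes and innate immune genes, a program known as the mitochondrial unfolded protein response or UPRmt.

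Library totals ranged from 12603294 to 17721491 counts in the 6 libraries, and 15004 genes passed the filter on low counts and were tested. Levels are given as CPM, counts scaled to a common effective library size. *trxr-2* replicate 1 stood apart from its group in the 6 yolk protein genes, which took 1.79% of its counts against 6.78% and 5.36% in replicates 2 and 3, while the double mutants lay between 3.57% and 4.14%. Wild type replicate 1 also stood apart, at 0.342%. Double mutant replicate 2 had the lowest sperm gene level of its group, as given below. Summed markers of oocyte, germline, intestine, muscle, hypodermis, pharynx and neuron were detected in all 6 libraries, though single markers were not checked library by library. The neuron marker *unc-17* had no count in these libraries, which need not mean that it was silent.

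The mutated genes were examined first. *trxr-2* (chromosome III, 8913769 to 8916450 in WBcel235) had 0, 1 and 1 counts in the *trxr-2* libraries and 1, 1 and 0 in the double mutants, against 129 to 264 counts in each library of the strains that carry the gene. Both strains compared were therefore at 0 or 1 count of *trxr-2* per library. *gsr-1* (chromosome III, 3650905 to 3652973) was at 282, 262 and 287 CPM in *trxr-2* and at 265, 251 and 258 CPM in the double mutants, a log2 difference of -0.10 ± 0.13 (SE) with an adjusted p of 0.765 in edgeR's quasi-likelihood test. Counts per gene cannot resolve the deletion, since exons 2 to 5 of the GSR-1a transcript (C46F11.2a.1) overlap exons of the GSR-1b transcripts, and only exon 1, from 3650907 to 3651010, belongs to the GSR-1a transcript alone.

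A pair of other genes did separate the strains by the *gsr-1a* genotype. *gid-8* was at 32.1, 23.1 and 24.6 CPM in *trxr-2* and at 5.92, 5.74 and 6.43 CPM in the double mutants. In wild type it was at 29.7, 24.8 and 26 CPM and in *gsr-1a* at 6.53, 5.47 and 3.57 CPM, so both strains with *syb266* lay below both strains without it. It fell by 2.14 ± 0.21 (SE) on the log2 scale in the comparison (adjusted p = 0.000137, edgeR's quasi-likelihood test). *B0511.11* went the other way, from 5.04, 3.61 and 2.86 CPM in *trxr-2* to 16.2, 14.1 and 14.6 CPM in the double mutants, a log2 change of 1.97 ± 0.19 (adjusted p = 0.000121, the same test), and it was at 20.2 to 21.4 CPM in *gsr-1a* against 4.63 to 5.17 CPM in wild type. These 2 genes are among the 4 that passed the threshold in *gsr-1a* against wild type. The difference between their effects without and with *trxr-2* was 0.24 ± 0.29 for *gid-8* and -0.10 ± 0.26 for *B0511.11*, with adjusted p of 0.845 and 0.936 in edgeR.

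Across the genome the response to *gsr-1a* loss without *trxr-2* was mostly upward in edgeR. Of the 15004 genes tested, 1619 (10.8%) were higher and 128 (0.853%) were lower in the double mutants at an adjusted p under 0.05 in edgeR's quasi-likelihood test, 1479 (9.86%) and 53 (0.353%) of them by more than 2-fold. The groups did not overlap in 1614 of the genes that rose and in 127 of those that fell, against 17.6% of all genes tested with every double mutant library higher and 10.1% with every one lower. Of the genes that rose, 1218 lay above all 9 libraries of the other strains (75.2%), a position held by 10.7% of all genes tested, while 5.9% of all genes tested lay below all 9. A call in the test itself favours such positions, so these shares are not separate support for the calls. At an unadjusted p under 0.05, 19.9% of all genes tested would be counted. The median log2 change over all genes was 0.01. Genes that rose were mostly rare transcripts, with a median of 0.921 CPM in *trxr-2* and 4.52 CPM in the double mutants, whereas those that fell had medians of 18 and 9.65 CPM. The count of lower genes depended on the method: DESeq2 called 1666 higher and 411 lower, and edgeR gave 66 lower without double mutant replicate 1, 72 without replicate 3, 209 without wild type replicate 1 and 207 without *gsr-1a* replicate 1. Leaving out all replicate 1 libraries, an alternative that moved the balance of directions, gave 1734 lower genes.

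**Figure D1:**
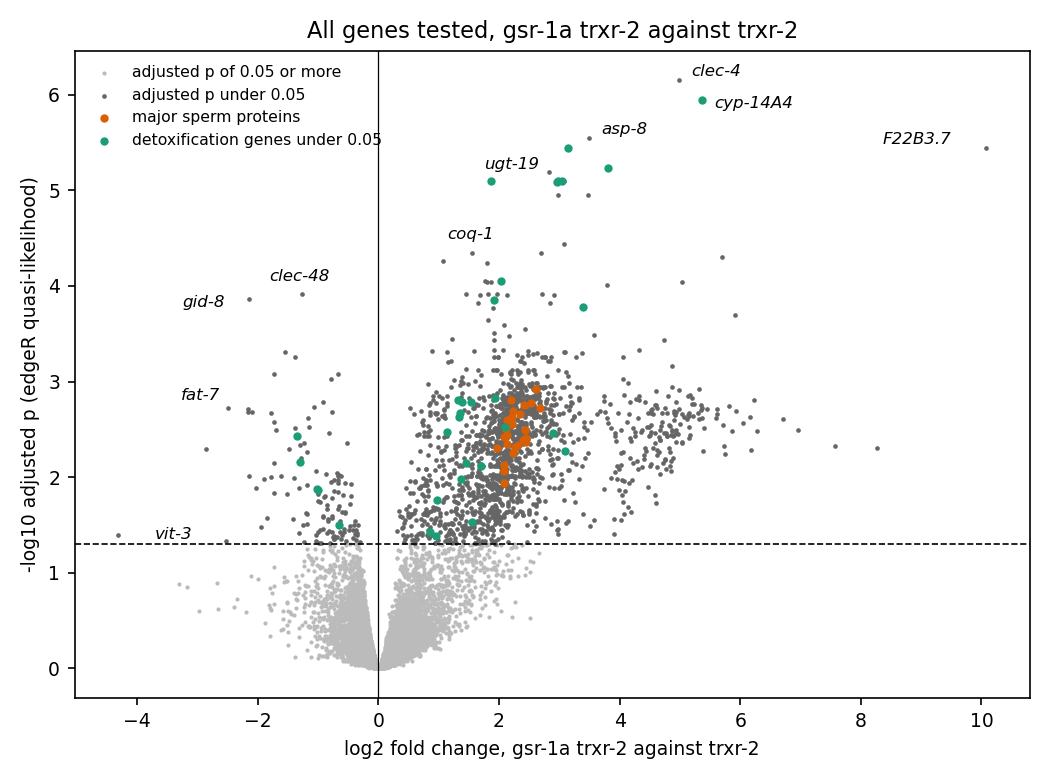
Each point is 1 of the 15004 genes tested, with the log2 fold change of double mutants against *trxr-2* on the x axis and -log10 of the adjusted p from edgeR on the y axis; the dashed line marks an adjusted p of 0.05. The 26 major sperm protein genes sit together near a log2 change of 2, *clec-4*, *cyp-14A4* and *asp-8* have the smallest adjusted p, and few genes lie past the line on the left.

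The genes that rose ranged from even to uneven over the 3 double mutant libraries. In 476 of the 1619 (29.4%), double mutant replicate 2 was below 0.5 times the mean of replicates 1 and 3, and in 1359 it was the lowest of the 3. The median of this ratio over all 1619 was 0.608. Uneven is used here for genes below the cut of 0.5, and even for genes whose 3 double mutant libraries lay closer together. The cut does not mark separate groups. Most of the largest rises were uneven: 170 genes rose by more than 4 on the log2 scale, and 157 of them were below the cut. These genes were nearly silent in *trxr-2*, with a median of 0.229 CPM, and reached a median of 6.44 CPM in the double mutants. The ratio of replicate 2 to the others is therefore given beside the gene groups below, and what sets it was not tested.

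Among the 10 largest rises of genes at a mean of at least 1 CPM, *F22B3.7* and *F55G11.7*, which is described with the immune genes, were the even ones. *F22B3.7* had 1 count in the 3 *trxr-2* libraries together and was at 33.9, 32.8 and 33.9 CPM in the double mutants, a ratio of 1446 with an exact 95% counting interval of 259 to 57144. It was also near 0 in the other strains, with means of 0.0242 CPM in wild type and 0.123 CPM in *gsr-1a*. *F38E1.10* had no count in *trxr-2* and was at 2.96, 0.920 and 3.34 CPM in the double mutants, at least 33.2-fold higher than a floor of 3 counts over the group. *Y6G8.16* rose from 0, 0.131 and 0.136 CPM to 10.6, 2.0 and 9.11 CPM. The others of this kind, *Y47D7A.11*, *F11A6.16*, *T10D4.7*, *Y49F6B.20* and both genes annotated as *nspa-7*, had 1, 2 or 3 counts in all of *trxr-2*, and in each of them replicate 2 was the lowest double mutant library.

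The 3 genes with the smallest adjusted p were even over the double mutant libraries, which the test itself favours. *clec-4*, which encodes a secreted protein with C-type lectin domains, was at 5.86, 9.72 and 10.4 CPM in *trxr-2* and at 288, 289 and 247 CPM in the double mutants. This is 31.6 times the mean of *trxr-2*, a log2 change of 4.98 ± 0.22 (SE, adjusted p = 7.03e-07, edgeR's quasi-likelihood test), and wild type and *gsr-1a* stayed at 8.05 to 10.4 and 6.62 to 9.27 CPM. *cyp-14A4*, a cytochrome P450 whose promoter serves as a reporter of mitochondrial dysfunction in worms, was at 0.451, 0.394 and 0.341 CPM in *trxr-2* and at 18.2, 15.5 and 15.8 CPM in the double mutants, a log2 change of 5.36 ± 0.26 (adjusted p = 1.13e-06). *asp-8*, an aspartyl protease, was at 13.2, 9.07 and 9.34 CPM in *trxr-2* and at 124, 120 and 110 CPM in the double mutants, a log2 change of 3.49 ± 0.19 (adjusted p = 2.84e-06). For all 3 genes the double mutant libraries lay close together and far above the 9 libraries of the other strains.

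**Figure D2:**
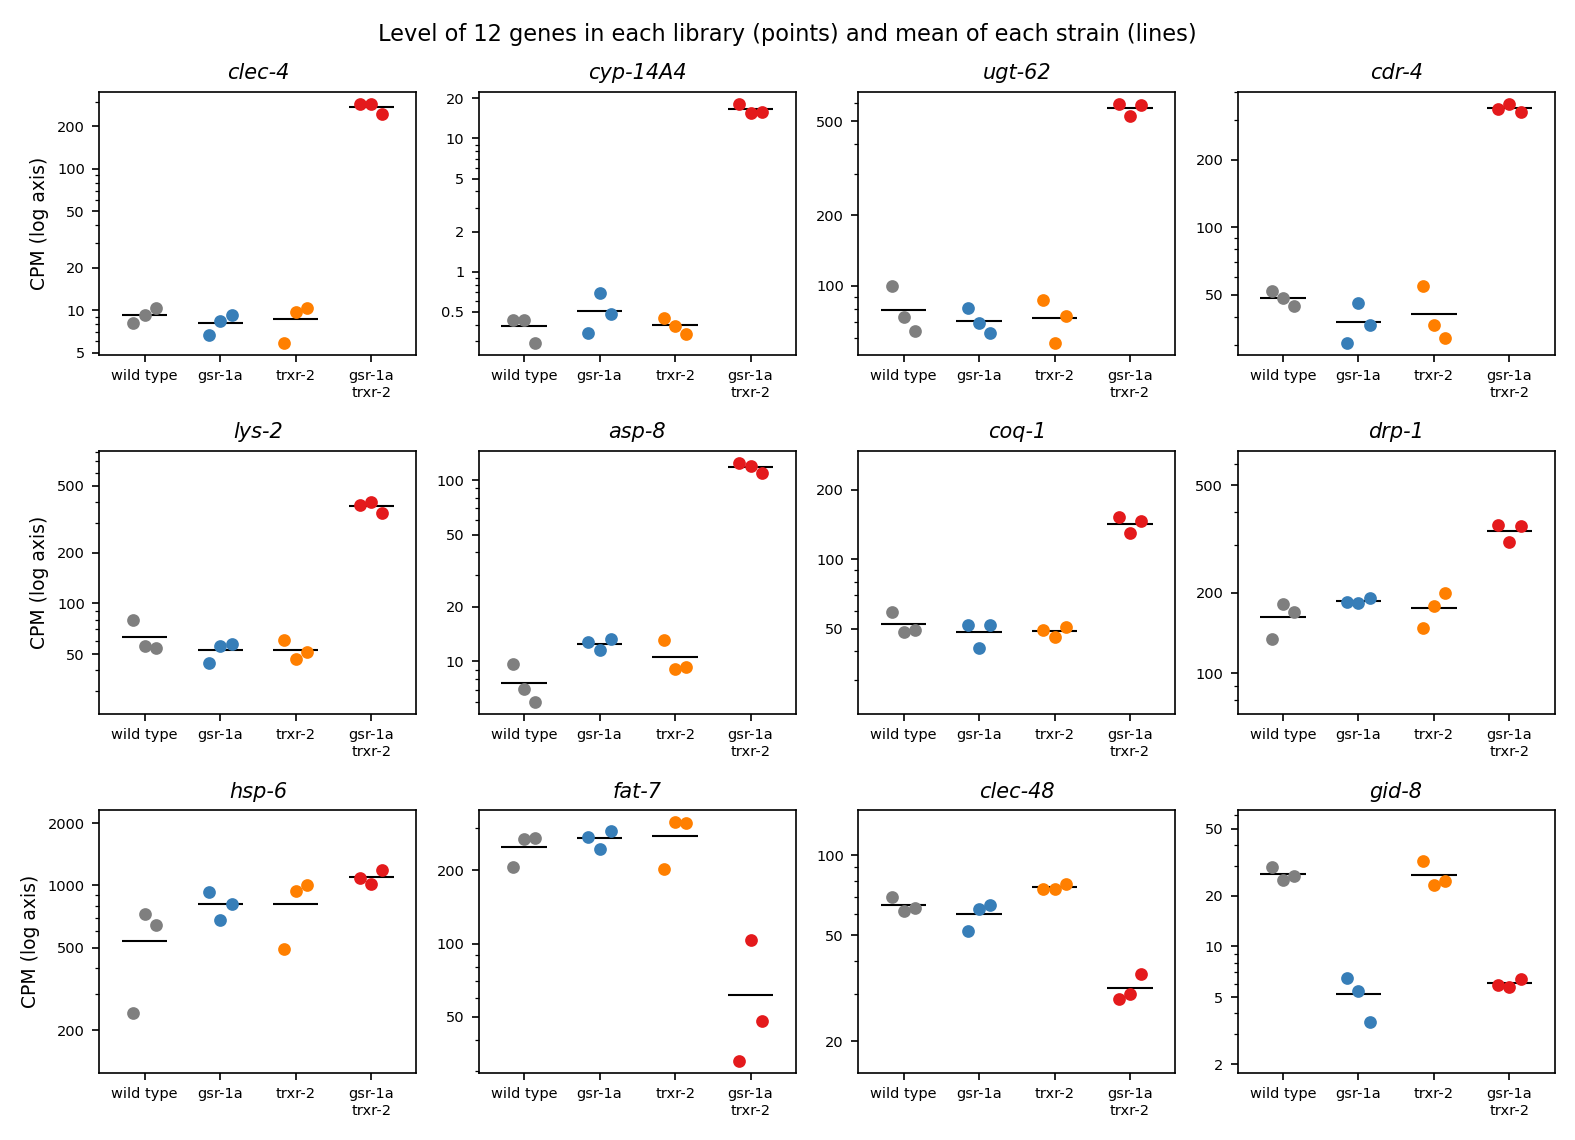
Level of 12 genes in every library, in CPM on a log axis; each point is a library, the 3 points of a strain are replicates 1, 2 and 3 from left to right, and the line is the mean of the strain. In the panels from *clec-4* to *drp-1* the double mutants lie above all 9 other libraries. For *hsp-6* they lie above *trxr-2*, whose replicate 1 is the lowest of its group, but the difference was not called (adjusted p = 0.576, edgeR). *fat-7* and *clec-48* are lowest in the double mutants, and *gid-8* is low in both strains with *syb266*.

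Detoxification enzymes of phase I and II and the pumps that export their products had a small number of members that rose, some by large amounts. Of 56 UDP-glucuronosyltransferases tested, which couple sugars to toxins and steroids, 8 rose and 1 fell, 14.3% against 10.8% of all genes higher. *ugt-62* went from 87.5, 57.3 and 74.5 CPM in *trxr-2* to 593, 526 and 585 CPM in the double mutants. *ugt-19* went from 9.55, 7.03 and 6.41 CPM to 72.0, 55.9 and 74.5 CPM, and *ugt-50* from 14.8, 16.8 and 18.1 CPM to 63.2, 57.3 and 61.6 CPM. No library of one strain entered the range of the other for these 3 genes, whose log2 changes were 2.96, 3.139 and 1.87 with adjusted p of 8.22e-06, 3.62e-06 and 8.01e-06 in edgeR's quasi-likelihood test. Replicate 2 of the double mutants was at a median of 0.906 times the others over the 8 members that rose.

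Of 60 cytochrome P450 genes, 9 rose (15%) and 4 fell (6.67%), against 10.8% and 0.853% of all genes tested. Next to *cyp-14A4*, *cyp-33C8* rose from 17.1, 15.7 and 16.7 CPM to 295, 150 and 250 CPM, *cyp-13A12* from 1.73, 1.31 and 0.682 CPM to 13.9, 11.75 and 13.7 CPM, and *cyp-14A1* from 7.14, 6.83 and 5.46 CPM to 24.9, 19.2 and 29.2 CPM. The median log2 change of the P450 genes was -0.02. Of 40 glutathione S-transferases, enzymes that attach glutathione to reactive compounds, 4 members rose while 0 fell (6 had an unadjusted p under 0.05), a share of 10% that was close to the 10.8% of all genes higher. They were *gst-38*, *gst-6*, *gst-14* and *gst-39*, with log2 changes of 2.10, 1.37, 1.55 and 0.85. That count fell to 2 without *trxr-2* replicate 2 or 3, or without double mutant replicate 1 or 3, and reached 9 when *trxr-2* replicate 1 and double mutant replicate 2 were both left out.

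Of 27 ABC transporter genes, 6 rose (22.2%), among them the P-glycoproteins *pgp-1*, *pgp-8*, *pgp-9* and *pgp-12*, pumps that expel foreign compounds. *pgp-9* rose from 13.2, 26.6 and 13.4 CPM to 175, 62.1 and 158 CPM and was uneven over the double mutants, while *pgp-1* rose from 8.72, 10.6 and 8.32 CPM to 22.2, 16.5 and 22.1 CPM. Of 180 nuclear hormone receptors tested, ligand-gated transcription factors that in worms include regulators of detoxification, 14 rose and 2 fell (7.78% and 1.11%), below the 10.8% of all genes. *nhr-193*, *nhr-210*, *nhr-115* and *nhr-226* had the smallest adjusted p, with log2 changes of 1.92, 1.92, 2.07 and 1.67 and double mutant libraries between 5.31 and 11.4 CPM, above all *trxr-2* libraries. The count of receptors that rose was 8 without *trxr-2* replicate 3, and the count that fell was 0 without *trxr-2* replicate 2 or double mutant replicate 1 or 3 and 1 with any other library of the 2 strains left out. All 14 receptors that rose were above the 9 libraries of the other strains, as were 75.2% of all genes that rose.

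Heavy metal and heme genes moved in both directions. *cdr-4* and *cdr-2*, glutathione S-transferase-like genes named for their response to cadmium, were at 54.6, 36.7 and 32.3 CPM and at 18.3, 11.4 and 11.1 CPM in *trxr-2*. In the double mutants *cdr-4* was at 335, 355 and 327 CPM and *cdr-2* at 118, 96.4 and 105 CPM, log2 changes of 3.04 ± 0.21 and 2.97 ± 0.20 with the same adjusted p of 8.01e-06 in edgeR's quasi-likelihood test. The metallothionein *mtl-2*, which binds metal ions, fell from 25.3, 10.6 and 12.3 CPM to 3.62, 3.1 and 3.93 CPM (log2 change -2.17 ± 0.36, adjusted p = 0.00207). Its paralogue *mtl-1* was at 19.5, 0.526 and 1.84 CPM in *trxr-2* and at 1.91, 0.812 and 0.656 CPM in the double mutants, where the groups overlap and *trxr-2* replicate 1 is far above the rest (adjusted p = 0.127, edgeR). *mtl-1* was called lower in DESeq2, in the likelihood ratio test and without *trxr-2* replicate 2.

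Of 14 genes of iron storage and transport, 4 rose (28.6%) and 1 fell (7.14%), against 10.8% and 0.853% of all genes tested. The count that rose was 3 without *trxr-2* replicate 2 and 5 without *trxr-2* replicate 1. The heme-responsive gene *hrg-7*, which encodes a secreted aspartic protease-like signal between intestine and neurons, went from 51.5, 54.9 and 46.2 CPM to 281, 138 and 225 CPM (log2 change 2.08 ± 0.22, adjusted p = 0.000255, edgeR). *hrg-2* and *hrg-9* rose by 1.97 and 1.38 on the log2 scale, to 4.98 to 8.157 and 6.03 to 7.47 CPM. The divalent metal transporter gene *smf-3*, the 1 that fell, went from 3.31, 2.69 and 2.66 CPM to 1.18, 1.35 and 0.721 CPM (log2 change -1.39, adjusted p = 0.0102).

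Gene families that include innate immune effectors also split, though membership of a family does not show that a gene acts in immunity here. Of 134 C-type lectin genes, 54 rose (40.3%) and 6 fell (4.48%), against 10.8% and 0.853% of all genes tested. Of the 54, 35 were uneven, and the median ratio of double mutant replicate 2 to the others was 0.308. The even members included *clec-66*, at 12, 19.2 and 19.5 CPM in *trxr-2* and at 134, 179 and 113.4 CPM in the double mutants, and *clec-10*, at 14.6, 14.7 and 18.1 against 39.7, 46.7 and 43.2 CPM. *clec-17*, an uneven one, went from 1.13, 0.263 and 0.341 to 22.7, 8.72 and 18.7 CPM. Among those that fell, *clec-48* was at 74.7, 74.8 and 78.2 CPM in *trxr-2* and at 28.8, 30.2 and 35.8 CPM in the double mutants, a log2 change of -1.26 ± 0.12 (adjusted p = 0.000121, edgeR's quasi-likelihood test), and *clec-218* fell by 1.79. The count of lectins that fell was 3 without double mutant replicate 1 or without replicate 3.

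Lysozymes, which cut bacterial cell walls, went in opposite directions within the family. *lys-2* was at 60.8, 46.7 and 51.2 CPM in *trxr-2* and at 386, 401 and 345 CPM in the double mutants (log2 change 2.83 ± 0.18, adjusted p = 6.35e-06, edgeR), and *lys-1* rose from 186 to 241 CPM in *trxr-2* to between 345 and 411 CPM. *ilys-5*, a lysozyme of the invertebrate type, fell from 576, 493 and 502 CPM to 118, 168 and 185 CPM (log2 change -1.74 ± 0.22, adjusted p = 0.000834), and *lys-4* fell from 382, 134 and 191 CPM to 46.2, 85.1 and 74 CPM. The remaining 7 of 11 lysozymes tested did not pass the threshold.

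Of 23 CUB-like, *dod* and *irg* genes, families induced by bacterial pathogens, 6 rose (26.1%) and none fell (15 had an unadjusted p under 0.05). All 6 were above the 9 libraries of the other strains, as were 75.2% of all genes that rose. *F55G11.8* rose from 5.19, 5.72 and 3.89 to 37.6, 43 and 36.6 CPM, *dod-19* from 82.8, 96.1 and 84.2 to 179, 225 and 179 CPM and *C17H12.8* from 21.8, 18.1 and 17.6 to 42.8, 38.6 and 45.7 CPM. *F55G11.7* was among the 10 largest rises, from 0.226, 0.131 and 0.0682 CPM to 8.95, 10.1 and 7.61 CPM. Of 16 *pals* genes, a family whose members include markers of the response to intracellular pathogens, 5 rose (31.2%), with *pals-6* going from 0.902, 0.263 and 0.614 to 6.84, 3.84 and 5.11 CPM. Of 65 antimicrobial peptide and saposin genes 10 rose (15.4%, against 10.8% of all genes tested), 9 of them uneven, such as *fipr-20*, at 0.226, 0.263 and 0.409 CPM in *trxr-2* and at 19.7, 3.09 and 14.9 CPM in the double mutants.

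Lysosomal and secreted proteases that rose were even over the double mutants. Of 18 aspartic and cathepsin B-like protease genes, 9 rose (50%) and 4 fell (22.2%), against 10.8% and 0.853% of all genes tested. The ratio of double mutant replicate 2 to the others ranged from 0.715 to 1.1 over those that rose. *cpr-5* went from 164, 220 and 188 to 403, 465 and 445 CPM, *cpr-8* from 7.44, 7.42 and 7.57 to 30.9, 20.9 and 27.7 CPM and *cpr-3* from 17.6, 18.1 and 11.5 to 47.7, 33.9 and 40.9 CPM. *cpr-6*, one of the most abundant members, fell from 979, 1205 and 1159 CPM to 579, 550 and 631 CPM (log2 change -0.93 ± 0.14, adjusted p = 0.00165, edgeR). The count of falling members was 1 without double mutant replicate 1 and 2 without *trxr-2* replicate 1.

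**Figure D3:**
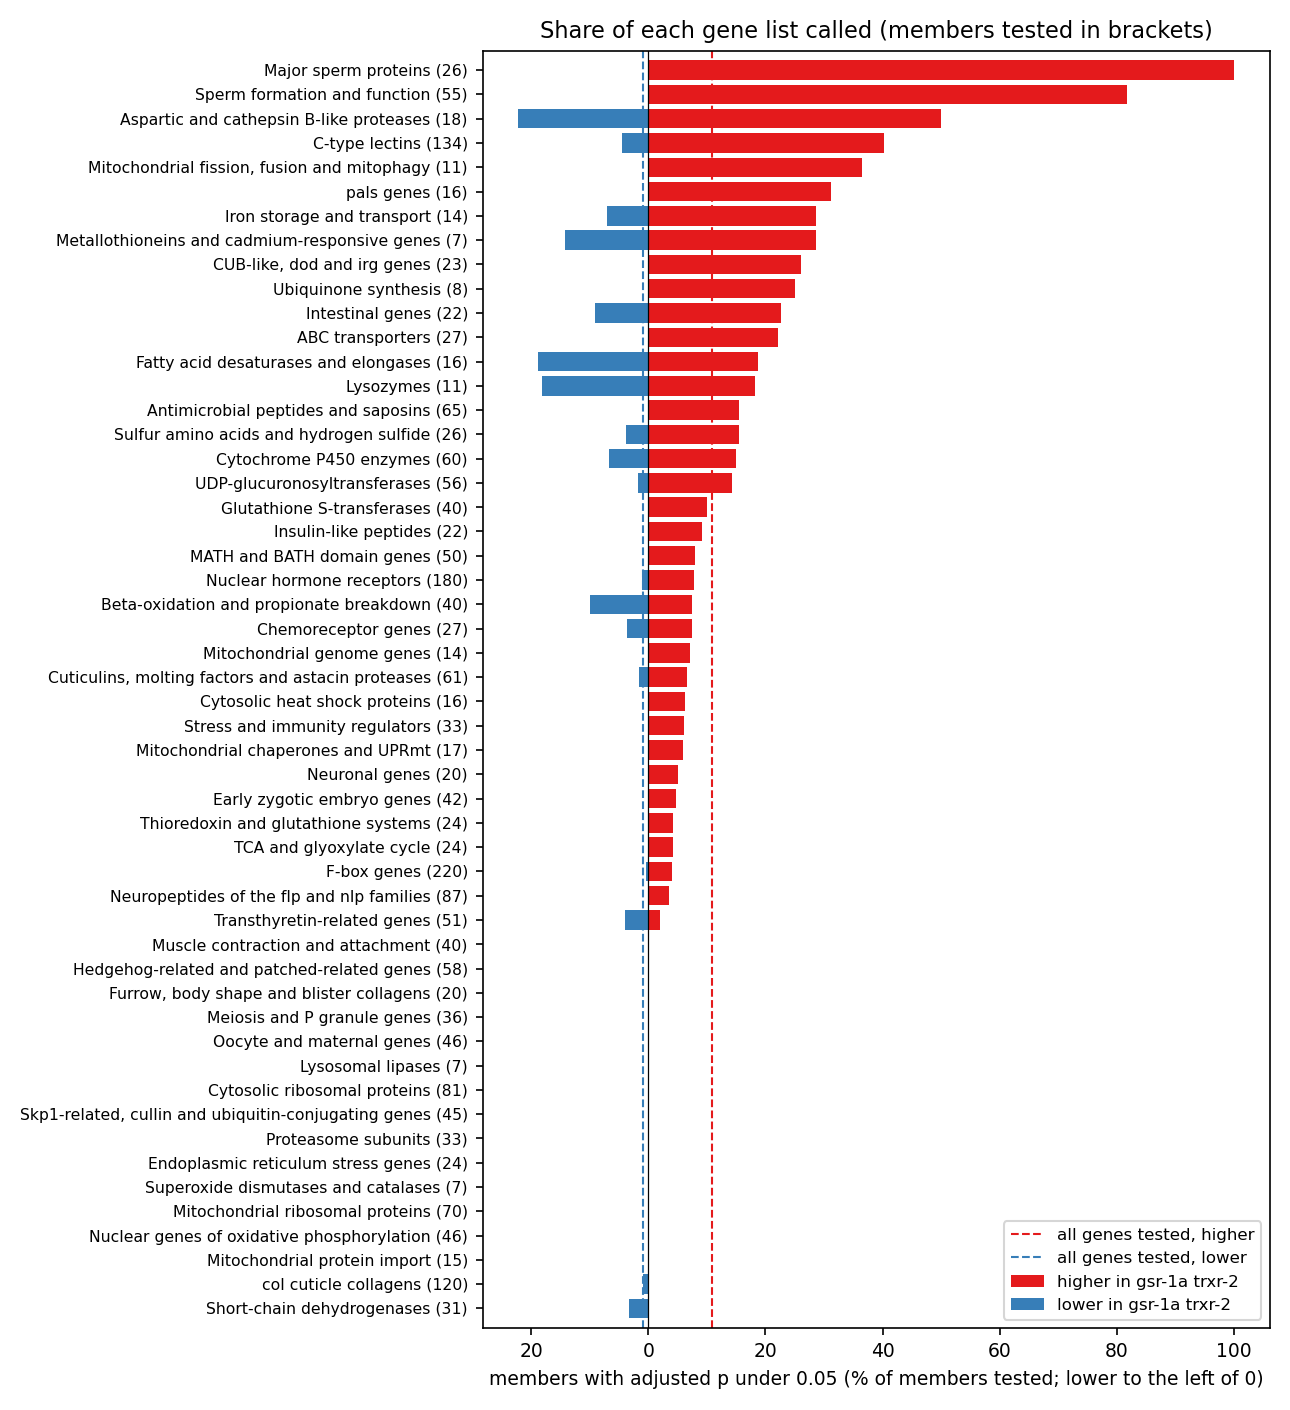
For every gene list with at least 7 members tested, the bars give the percent of members called higher (to the right) and lower (to the left) in double mutants against *trxr-2*, with the number tested in brackets; dashed lines mark all genes tested, 10.8% higher and 0.853% lower. Sperm lists, proteases and C-type lectins lie to the right of the line, and lists of ribosomal, proteasome, oxidative phosphorylation and oocyte genes have no bar.

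A small selection of genes that act in or on mitochondria passed the test. Of 11 genes of mitochondrial fission, fusion and mitophagy, 4 rose (36.4%, against 10.8% of all genes tested) and none fell (4 had an unadjusted p under 0.05). *drp-1*, the dynamin-related GTPase that cuts mitochondria, was at 147, 178 and 200 CPM in *trxr-2* and at 355, 309 and 353 CPM in the double mutants (log2 change 0.96 ± 0.15, adjusted p = 0.00167, edgeR's quasi-likelihood test). *mff-2*, a mitochondrial fission factor, was at 45.3, 33.2 and 40.3 CPM and rose to 102, 75.4 and 84.1 CPM. *sqst-1*, the p62 receptor of selective autophagy, went from 80.1, 70.5 and 62.5 to 183, 116 and 151 CPM, a call that was lost without *trxr-2* replicate 2 or 3 or double mutant replicate 1 or 3. The rare transcript *fis-1* was at 1.05, 0.526 and 0.205 CPM and at 2.30, 1.52 and 2.82 CPM, and its call was lost without double mutant replicate 3, where 2 members of the list were called.

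Ubiquinone, the lipid electron carrier of the respiratory chain, is made by the *coq* genes, of which 8 were tested. *coq-1*, which encodes the synthase of its isoprenoid tail, was at 49.4, 46.1 and 51 CPM in *trxr-2* and at 153, 130 and 146 CPM in the double mutants. The log2 change was 1.55 ± 0.13 (adjusted p = 4.54e-05, edgeR's quasi-likelihood test), and wild type and *gsr-1a* lay between 41.3 and 59.4 CPM. *coq-8*, an atypical kinase needed for the pathway, was at 76, 108 and 101 and at 130, 140 and 143 CPM, a log2 change of 0.53 with an adjusted p of 0.0324 in edgeR that was lost under 15 of 21 alternatives, among them the omission of any library of either strain compared. The other 6 genes did not pass.

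The chaperones by which the UPRmt is usually read did not pass the threshold. *hsp-6*, the mitochondrial Hsp70, was at 493, 936 and 1001 CPM in *trxr-2* and at 1092, 1015 and 1188 CPM in the double mutants, a log2 difference of 0.44 ± 0.36 (adjusted p = 0.576, edgeR). *hsp-60* was at 321, 618 and 709 and at 579, 532 and 651 CPM, and *atfs-1* at 95.5, 118.8 and 122 and at 140, 114 and 128 CPM (adjusted p of 0.944 and 0.478). For *hsp-6* every double mutant library was above every *trxr-2* library, and *trxr-2* replicate 1, the library with few yolk transcripts, was the lowest for all 3 genes. The 1 member called among 17 mitochondrial chaperones, proteases and UPRmt regulators was the mitochondrial DnaJ protein gene *dnj-10*, which rose from 70.1, 66.3 and 67.0 to 95.7, 95.9 and 102 CPM (log2 change 0.53 ± 0.08, adjusted p = 0.00188). *hsp-6*, *hsp-60* and *atfs-1* were chosen after their values were seen.

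None of 46 nuclear genes of oxidative phosphorylation, 70 mitochondrial ribosomal proteins or 15 import genes passed the threshold in edgeR's quasi-likelihood test, with 2, 0 and 1 members at an unadjusted p under 0.05 and median log2 changes of 0.01, -0.14 and 0.03. DESeq2 also called 0 of these 3 lists, while 4 import genes were higher, and 1 mitochondrial ribosomal protein was higher and 1 lower, when all replicate 1 libraries were left out. Of 14 genes of the mitochondrial genome tested, a ribosomal RNA gene (WBGene00014454) rose, from 26.5, 21.9 and 6.41 to 65.9, 57.3 and 66.4 CPM, in RNA selected for polyA tails. The count for this list was 9 of 14 higher when all replicate 1 libraries were left out. Among cytosolic ribosomal proteins, 0 of 81 were called with a median log2 change of -0.33. Every double mutant library was below every *trxr-2* library in 41 of 81, against 10.1% of all genes tested. When all replicate 1 libraries were left out, 73 were called lower, among 1734 lower genes in all. Of 33 proteasome subunits 0 were called, and 20 were lower with that omission. At an unadjusted p under 0.05 there were 2 ribosomal proteins and 0 proteasome subunits, and DESeq2 called 1 ribosomal protein higher and 1 proteasome subunit lower.

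Few genes of thiol and peroxide defence passed the test. Of 24 thioredoxin and glutathione genes, *gpx-7*, a glutathione peroxidase, was the 1 called in this fit: it went from 7.52, 5.06 and 5.52 to 11.71, 12.5 and 10.3 CPM (log2 change 0.93 ± 0.20, adjusted p = 0.00839, edgeR's quasi-likelihood test). Mitochondrial thioredoxin *trx-2*, the protein that TRXR-2 reduces, was at 68.8, 45.8 and 44.5 and at 88.0, 70.5 and 79.3 CPM, higher in all 3 double mutant libraries than in any *trxr-2* library, with an adjusted p of 0.0718 in edgeR. It was called under 9 of 21 alternatives, among them DESeq2, the replicate block and the omission of *trxr-2* replicate 1, which gave 2 called members of the list, and its adjusted p over the alternatives ranged from 0.00137 to 0.263. The cytosolic reductase *trxr-1* was at 173, 151 and 157 and at 147, 160 and 173 CPM, and mitochondrial peroxiredoxin *prdx-3* at 267, 203 and 211 and at 245, 222 and 217 CPM; these 2 were chosen after their values were seen. The superoxide dismutases *sod-2* and *sod-3* of the mitochondrial matrix had log2 differences of -0.10 and 0.72 with adjusted p of 0.877 and 0.183 (*sod-3* was called higher under 3 of 21 alternatives), and 0 of 7 superoxide dismutases and catalases were called (2 at an unadjusted p under 0.05, and 1 lower in DESeq2).

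Enzymes of sulfur amino acids and hydrogen sulfide showed 4 of 26 members higher (15.4%) and 1 lower (3.85%). Over all genes tested the shares were 10.8% and 0.853%, and the median log2 change of the list was -0.008. The count of lower members was 0 without *trxr-2* replicate 2 or 3 or without any of the double mutant libraries. *cbs-2*, a cystathionine beta-synthase, went from 1.20, 0.854 and 0.750 to 5.72, 2.92 and 5.77 CPM, *mpst-4*, a mercaptopyruvate sulfurtransferase, from 1.05, 0.788 and 1.23 to 6.64, 2.87 and 6.43 CPM, and the S-adenosylmethionine synthetase *sams-5* from 12.4, 7.29 and 6.34 to 20.9, 17 and 25.3 CPM. Replicate 2 was the lowest double mutant library in all of these. *rhy-1*, a regulator of the hypoxia factor HIF-1 (chosen after its values were seen), fell from 20.2, 32.8 and 32.5 to 16.8, 18.1 and 18.5 CPM with an adjusted p of 0.0216 in edgeR, and lost the call without *trxr-2* replicate 2 or 3 or without any of the double mutant libraries.

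Few cytosolic stress genes passed the test. *hsp-17*, a small heat shock protein, rose from 25.3, 19.1 and 24.1 to 84.4, 93.4 and 71.1 CPM (log2 change 1.86 ± 0.17, adjusted p = 9.16e-05, edgeR), the 1 member called of 16 cytosolic heat shock proteins. Of 24 endoplasmic reticulum stress genes 0 were called in edgeR or DESeq2, with 4 at an unadjusted p under 0.05. Of 33 stress and immunity regulators, the bZIP gene *zip-12* rose by 0.79 and the kinase gene *dlk-1* by 0.49, the latter from 41.1, 42.6 and 48.7 to 58.3, 66.4 and 61.4 CPM (adjusted p = 0.0235). The *dlk-1* call was lost under 10 of 21 alternatives, among them the omission of *trxr-2* replicate 1 or 2 or of any double mutant library. DLK-1 acts in a MAP kinase pathway read out in worms with the tubulin gene *tbb-6*, chosen here after its values were seen. It was at 8.27, 11.6 and 10.4 CPM in *trxr-2* and at 28.9, 24.6 and 24.1 CPM in the double mutants (log2 change 1.36, adjusted p = 0.00109, edgeR). The study measured a UPRmt independent of ATFS-1, citing work on DLK-1, with a fluorescent reporter. It describes that response as very marginally altered in the double mutants. Activity of the pathway was not tested here.

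Sperm transcripts were prominent among the genes that rose, with the highest shares of members called of the lists with at least 7 members tested. All 26 major sperm protein genes tested were higher in the double mutants (26 of 26, 100%, median log2 change 2.23), and 45 of 55 other genes of sperm formation and function (81.8%, median 2.12). The share over all genes tested was 10.8%. Major sperm protein is the cytoskeletal protein by which nematode sperm crawl and a signal for oocyte maturation. *msp-55* was at 15, 9.0 and 7.30 CPM in *trxr-2* and at 79.8, 38.1 and 73.6 CPM in the double mutants, a log2 change of 2.62 ± 0.37 (adjusted p = 0.00119, edgeR's quasi-likelihood test). *spe-46*, a gene needed for sperm development, was at 1.58, 1.64 and 1.36 and at 6.84, 5.52 and 8.72 CPM, and *ssp-19*, of the sperm-specific family, at 1.65, 0.985 and 0.818 and at 9.54, 3.63 and 8.79 CPM. The *msp* genes are near-identical copies between which reads can be split, so their sum is the firmer value.

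Summed over 31 sperm markers, of which 29 were tested and all 29 rose, the level was 383, 190 and 158 CPM in *trxr-2* and 1463, 637 and 1324 CPM in the double mutants. The groups did not overlap, yet double mutant replicate 2 had less than 0.5 times the level of the other 2. The sum was 196 to 283 CPM in wild type and 376 to 721 CPM in *gsr-1a*, and *gsr-1a* overlapped both strains compared, with its lowest library below *trxr-2* replicate 1 and its highest above double mutant replicate 2. *msp-31* and *msp-45* had no count in the 6 libraries. Leaving out single libraries gave between 32 and 49 sperm formation genes higher.

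Lists of oocyte, germline and embryo genes had few or no members called. Of 46 oocyte and maternal genes 0 were called (median log2 change -0.02, 2 at an unadjusted p under 0.05), and of 36 meiosis and P granule genes 0 (median -0.06, 0 at an unadjusted p under 0.05). Summed oocyte markers were at 7814 to 13457 CPM in *trxr-2* and at 11332 to 12270 CPM in the double mutants. DESeq2 called 2 oocyte genes lower and 0 meiosis genes. With all replicate 1 libraries left out, 16 of the oocyte genes and 10 of the meiosis genes were lower. Of 42 early zygotic genes, 2 were higher (*tbx-34* and *sdz-35*) against a median log2 change of -0.37.

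**Figure D4:**
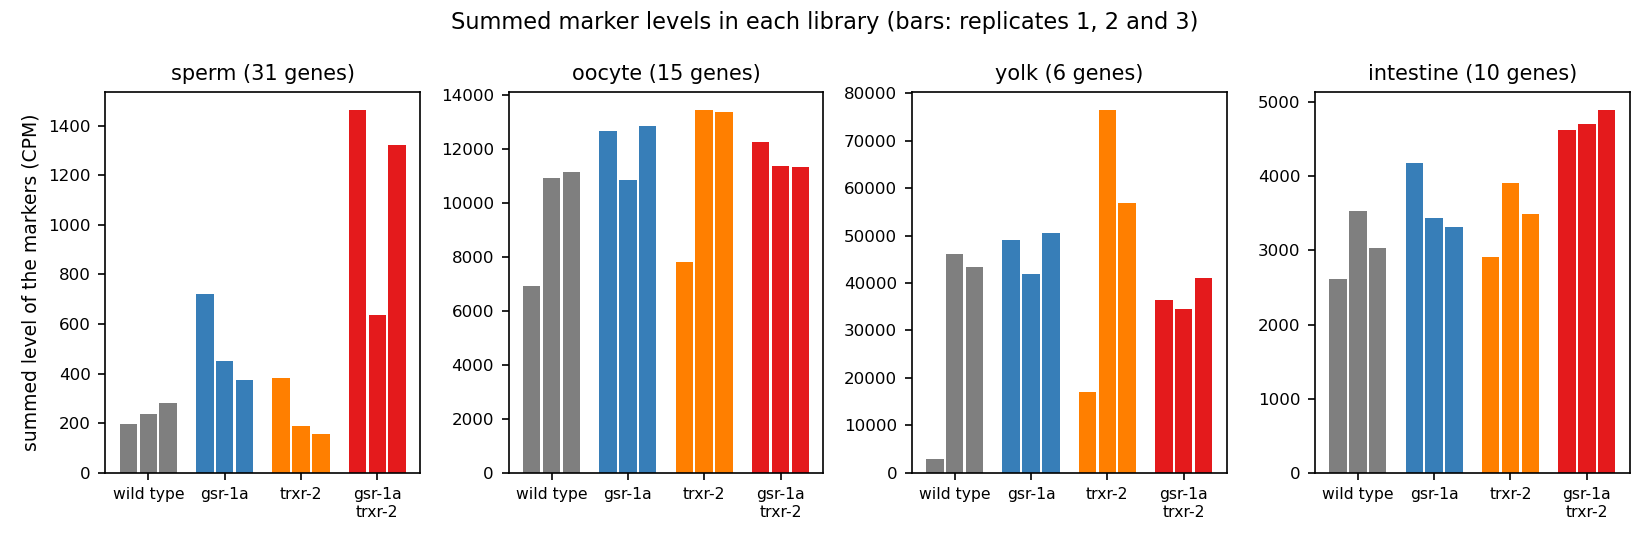
Summed CPM of the sperm, oocyte, yolk and intestine markers in every library; bars are replicates 1, 2 and 3 of each strain from left to right and all axes start at 0. Sperm markers reach 637 to 1463 CPM in the double mutants against 158 to 383 CPM in *trxr-2*, and yolk is low in wild type replicate 1 and *trxr-2* replicate 1.

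Families named by their gene symbol were counted as well, without a chosen list. Over all genes tested, 10.8% were higher and 0.853% lower. Of 464 families with at least 4 members tested, 22 had 50% or more of their members higher. All members were higher in *msp* (26), *nspd* (9), *nspa* (7), *msd* (4) and *ssq* (4), and the share was 87.5% in the kinase family *ttbk* (7 of 8), 69.6% in *spe* (16 of 23) and 60% in *scl* (6 of 10). The last, secreted proteins of the SCP/TAPS type, had a median log2 change of 2.98. Chromosome X held a smaller share than the autosomes: 64 of its 2105 genes (3.04%) were higher, against 8.84% on chromosome III and 15.9% on chromosome IV, which were the ends of the autosomal range. For genes that fell the X was at the top of the range, with 1.47%.

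Several secreted and signalling genes had large, uneven rises. The insulin-like peptide gene *ins-31* was at 0.226, 1.64 and 1.77 CPM in *trxr-2* and at 62.8, 12.1 and 56.5 CPM in the double mutants, a log2 change of 5.14 ± 0.87 (adjusted p = 0.00226, edgeR). The astacin metalloprotease genes *nas-17* and *nas-24* went from 0.150 to 0.614 and from 0.226 to 0.750 CPM to between 4.87 and 20.9 and between 6.06 and 22.9 CPM, and in both replicate 2 was the low library. *C04C3.14* rose from 0.677, 0.460 and 0.409 to 21.4, 5.79 and 14.2 CPM. In contrast *clc-11*, a claudin-like gene, was even: it was at 0.226, 0.197 and 0.136 CPM in *trxr-2* and at 10.3, 9.96 and 9.64 CPM in the double mutants.

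Falls were fewer. Of 16 fatty acid desaturases and elongases 3 rose (18.8%) and 3 fell (18.8%). Of 40 genes of beta-oxidation and propionate breakdown 3 rose (7.5%) and 4 fell (10%). The background was 10.8% higher and 0.853% lower. With single libraries of either strain left out, falling members ranged from 1 to 5 in the first list and from 2 to 4 in the second. *fat-7* and *fat-5*, desaturases that make oleic and palmitoleic acid, were at 203, 316 and 313 and at 51.3, 46.4 and 92.9 CPM in *trxr-2*. In the double mutants *fat-7* was at 33, 103.6 and 48.2 CPM (log2 change -2.17 ± 0.35, adjusted p = 0.00191, edgeR) and *fat-5* at 10.1, 27.1 and 9.18 CPM (-2.03 ± 0.47, adjusted p = 0.0130), so replicate 2 kept the most of both. The *fat-5* call was lost without *trxr-2* replicate 3 or double mutant replicate 1 or 3. *hach-1*, an enzyme of valine and propionate breakdown, fell from 510.6, 508 and 477 to 252, 299 and 299 CPM, *ech-1.1*, of beta-oxidation, from 5.64, 7.16 and 6.55 to 2.43, 3.41 and 2.03 CPM, and the lipid droplet dehydrogenase *dhs-3* from 62.8, 62.3 and 61.4 to 37.7, 39.4 and 39.5 CPM.

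Yolk protein genes differed among themselves. *vit-3* was at 920, 4645 and 3597 CPM in *trxr-2* and at 364, 639 and 581 CPM in the double mutants, a log2 change of -2.53 ± 0.74 with an adjusted p of 0.0465 in edgeR that was lost without 10 of the 12 libraries, each left out in turn. *vit-1*, *vit-4* and *vit-5* had log2 differences of -1.73, -1.59 and -1.48 (adjusted p of 0.212, 0.251 and 0.321), and in each the low *trxr-2* replicate 1 overlapped the double mutants. These 3 genes were called lower when wild type replicate 1, which had few yolk transcripts, was left out, and when all replicate 1 libraries were, with adjusted p over the alternatives from 6.85e-05 to 0.425 for *vit-1*. *vit-2* and *vit-6* were at 14199 to 17990 and 12868 to 16380 CPM in the double mutants, inside the *trxr-2* range (log2 differences of 0.02 and 0.05). *vit-3*, *vit-4* and *vit-5* are close paralogues, between which reads can be split.

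Among the other large falls, *pho-11*, an acid phosphatase, went from 76.6, 61.7 and 56 to 18.7, 28.3 and 19.5 CPM and *thn-2*, a thaumatin-like protein, from 27.4, 12.2 and 13.3 to 6.12, 4.06 and 5.77 CPM. *nspe-7*, *F54E4.2* and *E02H4.7* fell by 2.86, 2.11 and 1.90 on the log2 scale. *T22F3.11*, chosen after its values were seen, had the most negative log2 change of all genes tested, -4.32, and lost its call under 12 of 20 alternatives, among them the omission of *trxr-2* replicate 1: it was at 147 CPM there and at 2.76 and 5.80 CPM in replicates 2 and 3, against 1.77 to 3.79 CPM in the double mutants.

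Intestinal genes outside these families were mixed, with 5 of 22 higher (22.7%) and 2 lower (9.09%), against 10.8% and 0.853% of all genes tested. The count of higher ones was 3 without double mutant replicate 3. *vha-6*, the proton pump subunit of the intestinal lumen, rose from 234.5, 333 and 277 to 596, 632 and 632 CPM (log2 change 1.14 ± 0.17, adjusted p = 0.00143, edgeR) and the gut esterase *ges-1* from 23.4, 24.2 and 21.9 to 38.4, 35.5 and 39.6 CPM. The summed level of 10 intestine markers was 2910 to 3914 CPM in *trxr-2* and 4629 to 4892 CPM in the double mutants. Collagens of the cuticle gave 0 higher and 1 lower (*col-43*) of 120, with 7 at an unadjusted p under 0.05. Their median log2 level relative to the *trxr-2* mean was 0.61 in double mutant replicate 2 but -0.08 and 0.06 in replicates 1 and 3. A set of 40 muscle genes gave 0 in edgeR and DESeq2 (0 at an unadjusted p under 0.05). Neuropeptides gave 3 of 87 higher, a count that was 13 without *trxr-2* replicate 1 and 1 without replicate 3, and the synaptic vesicle gene *rab-3* was the 1 neuronal gene of 20, a count of 3 without that library and of 0 without *trxr-2* replicate 2 or 3 or double mutant replicate 1 or 3.

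The effect of *gsr-1a* loss without *trxr-2* was then set against its effect in worms that have *trxr-2*. With *trxr-2* present, 3 genes (0.02%) were higher and 1 (0.00666%) lower in *gsr-1a* than in wild type. The difference between the effects passed the threshold for 109 genes that were more positive without *trxr-2* (0.726%) and for 6 that were more negative (0.04%) in the same edgeR fit. The first count ranged from 46 without *gsr-1a* replicate 3 to 286 without double mutant replicate 2, and the second from 2 to 13. All 109 were also called higher in the double mutants. Of these, 103 lay above all 9 libraries of the other strains in all 3 double mutant libraries. So did 75.2% of all genes that rose and 10.7% of all genes tested. The tests that gave these calls favour this position, so it is not read as a trait of the 109. In these 109 genes replicate 2 of the double mutants was at a median of 0.921 times the other 2, and 5 of the 109 were below 0.5. The median was 0.608 for all 1619 genes that rose. The test weighs a difference against the spread within strains, so uneven genes pass it less easily. The evenness of the 109 is therefore in part a result of how they were selected and is not read as a trait of these genes.

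Called differences included genes of the detoxification, metal, immune and ubiquinone lists. Differences were also large for *clc-11* (5.92) and *C04C3.14* (5.07). The difference in log2 effect was 5.16 ± 0.29 for *clec-4* (adjusted p = 1.03e-05), 4.92 ± 0.43 for *cyp-14A4* (adjusted p = 0.000164), 3.39 ± 0.28 for *cdr-4*, 3.12 ± 0.27 for *ugt-62*, 3.10 ± 0.25 for *lys-2* and 1.66 ± 0.18 for *coq-1* (adjusted p = 0.000819). By list, 5 of 56 UDP-glucuronosyltransferases, 4 of 60 cytochrome P450 genes, 8 of 134 C-type lectins, 5 of 180 nuclear hormone receptors and 4 of 23 CUB-like, *dod* and *irg* genes had a more positive effect. Over all genes tested the share was 0.726%. For *fat-7* the difference was -2.29 and had an adjusted p of 0.0547.

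**Figure D5:**
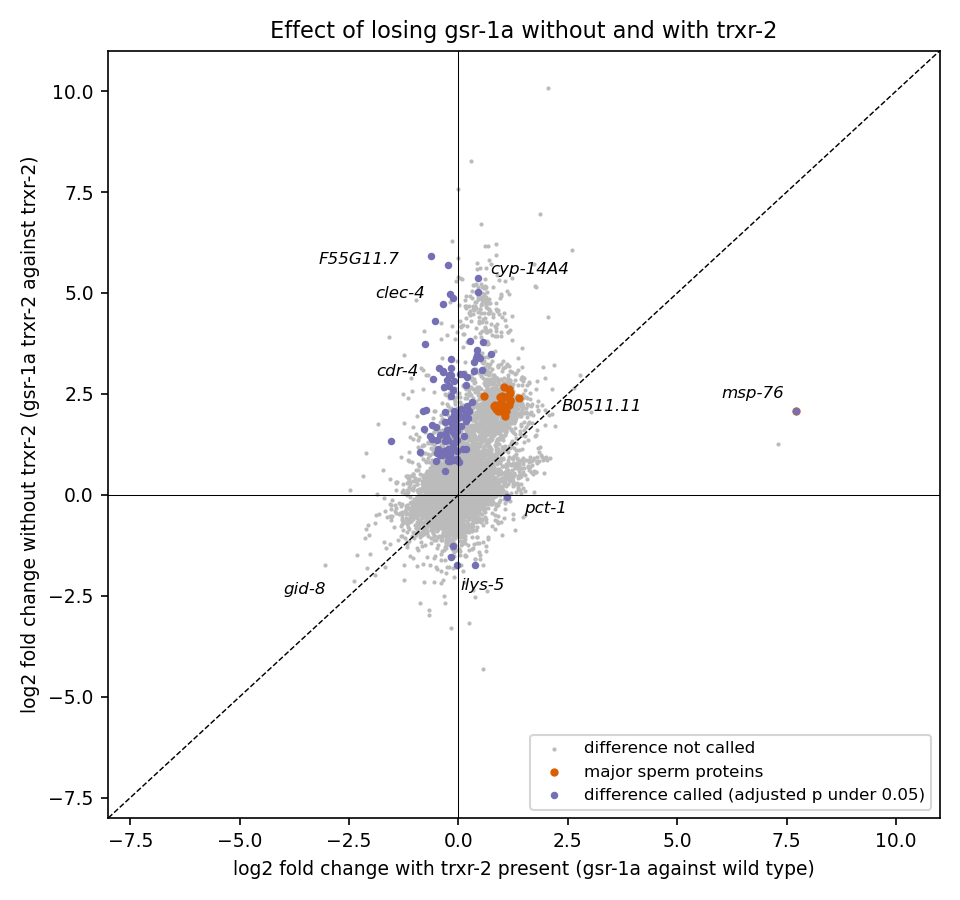
Each point is a gene tested; the x axis is the log2 fold change of *gsr-1a* against wild type and the y axis that of double mutants against *trxr-2*, 2 comparisons that share no library, and the dashed line marks equal effects. Most of the 109 genes with a more positive effect lie near 0 on the x axis and above 0 on the y axis, *gid-8* and *B0511.11* lie on the line of equal effects, and the major sperm proteins lie at about 1 on the x axis and 2 on the y axis.

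No member of the 2 sperm lists had a called difference of this kind. The median log2 change of the 26 major sperm protein genes was 2.23 without *trxr-2* and 1.01 with it, and for the 55 sperm formation genes 2.12 and 0.88, but 0 of the 26 and 0 of the 55 had a more positive effect at an adjusted p under 0.05. For *msp-55* the difference was 1.46 ± 0.50 with an adjusted p of 0.243. The 1 sperm gene with a called difference was *msp-76*, with a more negative effect, and it was nearly silent in wild type alone, at a mean of 0.116 CPM against 29.4 CPM in *gsr-1a*, 8.39 to 24 CPM in *trxr-2* and 32.7 to 78.8 CPM in the double mutants. *pct-1*, a PCTAIRE-type kinase gene, was likewise at a mean of 54.1 CPM in wild type and at 102 to 119.5 CPM in *trxr-2* and 104.2 to 111.6 CPM in the double mutants, where the comparison gave a log2 difference of -0.05.

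A few genes, chosen after their values were seen, were low in *trxr-2* and nearer to wild type in the double mutants. *R10E4.1* was at 9.92, 9.79 and 10.2 CPM in *trxr-2* and at 33.8, 37.2 and 32.6 CPM in the double mutants, with means of 47.7 CPM in wild type and 38.7 CPM in *gsr-1a* (log2 change 1.79 ± 0.15, adjusted p = 5.69e-05, edgeR). *ZC317.7* was at 2.48, 4.20 and 3.34 and at 8.35, 9.04 and 8.59 CPM, against 13.6 CPM in wild type. A pair of annotated pseudogenes on chromosome II, WBGene00014307 and WBGene00014309, rose from 29.1 to 53.6 and from 245 to 351 CPM to between 109 and 120 and between 915 and 997 CPM, with wild type means of 132 and 770 CPM. In all 4 genes *trxr-2* was the low strain, whereas *clec-4* and *cyp-14A4* were low in all 3 strains other than the double mutants. Whether the 4 genes follow *gsr-1a* loss or a trait of the *trxr-2* line was not tested.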

How the data were processed

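The authors checked reads with FastQC 011.9, aligned them to WBcel235 with HISAT2 and counted them per gene of Ensembl release 97 with featureCounts 2.0.0, per the labels and the study's methods. The deposited values are raw counts for 46904 genes in each of 12 libraries, and 93.8% of the gene identifiers had a symbol. edgeR 4.0.16 (R 4.3.3) was run on all 12 libraries with 1 mean per strain, TMM scaling, filterByExpr by strain, the quasi-likelihood test with 8 residual degrees of freedom and Benjamini-Hochberg adjustment over 15004 genes at 0.05, after a check on simulated data. DESeq2 1.42.0, other filters and scaling, and fits without libraries were alternatives. Counting intervals cover counting error only, and p-values the spread between these libraries.

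The libraries, gene lists and tests were chosen with earlier results of these data known. Named genes were *gsr-1*, *trxr-2*, genes called in *gsr-1a* against wild type, the 10 largest rises and falls and the 5 largest differences of each sign among called genes that averaged 1 CPM or more and whose groups did not overlap, and the 4 members of each list with the smallest adjusted p, or any member of a list of at most 10. Others are named as chosen after their values were seen. Replicates of a strain correlated at 0.965 to 0.993 in log2 CPM.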

Additional observations from a re-analysis of the deposited data

Results flagged for a closer look

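The effect of *gsr-1a* loss differed between worms without and with *trxr-2* for 109 genes with a more positive effect and for 6 with a more negative one, by the test of the difference itself in edgeR at an adjusted p under 0.05. Among the named genes, the difference in log2 effect was *F55G11.7* 6.54, *clc-11* 5.92, *clec-4* 5.16, *C04C3.14* 5.07, *clec-17* 4.99, *cyp-14A4* 4.92, *pals-6* 3.59, *cyp-33C8* 3.54, *clec-66* 3.43, *cdr-4* 3.39, *ugt-19* 3.31, *cdr-2* 3.18, *ugt-62* 3.12 and *lys-2* 3.10. Smaller positive differences were *bath-26* 3.00, *cyp-13A12* 2.99, *F55G11.8* 2.88, *asp-8* 2.75, *nhr-115* 2.18, *R10E4.1* 2.09, *ugt-50* 2.03, *nhr-193* 2.03, *fbxa-182* 2.02, *hsp-17* 2.01, *cyp-14A1* 1.98, *hrg-2* 1.95, WBGene00014307 1.86 and *tbb-6* 1.86. The remaining positive values were *ugt-21* 1.86, *hrg-7* 1.84, WBGene00014309 1.81, *nhr-210* 1.79, *clec-10* 1.74, *coq-1* 1.66, *cpr-8* 1.65, *pgp-12* 1.65, *pgp-1* 1.60, *fbxa-74* 1.56, *ZC317.7* 1.39, *mff-2* 1.24, *dod-19* 1.05 and *C17H12.8* 0.97. Among these positive ones, *R10E4.1*, *ZC317.7*, WBGene00014307 and WBGene00014309 were low in the *trxr-2* line, as described above. Negative differences were *clec-48* -1.15, *pct-1* -1.16, *pho-11* -1.38, *ilys-5* -1.69, *thn-2* -2.12 and *msp-76* -5.63, of which *msp-76* and *pct-1* were lower in wild type than in the other 3 strains. Of 48 differences named, 25 kept their call under all 20 alternatives that could be fitted for them. Among the largest, *F55G11.7* lost its call under 10 of these, *clec-17* and *pals-6* under 9 each and *C04C3.14* under 4. *clc-11*, *clec-4* and *cyp-14A4* kept theirs under all.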

How the results depend on the processing

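The count of higher genes stayed between 1238 and 2092 under every alternative run, and the count of lower genes did not hold. Lower genes numbered 53 at more than 2-fold, 411 in DESeq2 (with 1666 higher), 224 with RLE scaling, 229 with a filter of 1 CPM in 3 libraries, 78 with only the 2 strains compared, 1734 without all replicate 1 libraries, and 66 to 209 with single libraries left out. More positive differences numbered 361 in DESeq2, 453 in the likelihood ratio test, 294 without all replicate 1 libraries, and 46 to 286 with single libraries left out. More negative ones numbered 34, 25 and 114 in the same order, and 2 to 13. In *gsr-1a* against wild type these settings gave 26, 20 and 7 higher and 15, 13 and 8 lower genes, with 1 to 2 lower for single libraries. Without both *trxr-2* replicate 1 and double mutant replicate 2, an alternative chosen after seeing the data, there were 634 more positive and 20 more negative differences and 2 lower genes in *gsr-1a* against wild type. The cause of these shifts was not tested.

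Replicate numbers were not used to pair libraries in the main fit. Same-numbered double mutant and *trxr-2* libraries correlated at 0.061, -0.084 and 0.007 in their deviations from strain means. Pairs with different numbers correlated at -0.122 to 0.092. These values cover only the strains compared, and whether same-numbered libraries of all strains share a batch was not tested. With a replicate block there were 1680 higher and 203 lower genes, and 129 more positive and 13 more negative differences.

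Of 140 named genes called, 121 kept the call under all alternatives in which they could be tested (19 to 21 of 21), and of 26 not called 12 were called under at least 1. Uncalled genes changed the sign of their log2 fold change under the settings named above, the values here being those reversed and then the range with single libraries left out: trxr-2, log2 fold change of counts of 0 or 1 (range -0.63 to 0.30), *pct-1* (range -0.11 to 0.00035), *hsp-60* (-0.20, -0.11, range -0.18 to 0.32), *atfs-1* (-0.029, range 0.079 to 0.26), *trxr-1* (0.071, 0.022, 0.052, range -0.079 to 0.0502), *prdx-3* (-0.042, -0.0077, -0.063, range -0.066 to 0.14), *sod-2* (0.019, 0.14, range -0.23 to 0.11), *mtl-1* (0.12, range -3.24 to -0.082), *vit-6* (-0.029, -0.0022, -0.051, -0.43, -0.26, range -0.36 to 0.49) and *vit-2* (-0.054, -0.027, -0.076, -0.43, -0.29, range -0.38 to 0.41). Whole-worm RNA, 3 libraries per strain and yolk and sperm levels that vary within a strain limit these values, most of all for genes under 1 CPM.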
